A study of Mus musculus with 3 samples.

Results

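The genes described here are the cytosolic ribosomal protein genes of mouse brain cells: every gene of the deposited expression table whose symbol begins with Rpl or Rps and a digit, together with Rpsa, Rplp0, Rplp1 and Rplp2. Symbols that mark a pseudogene (-ps) and the S6 kinase genes (Rps6k) were left out. The rule took 87 of 17551 genes, 53 for the large ribosomal subunit (Rpl and Rplp symbols) and 34 for the small one (Rps and Rpsa symbols). By symbol it also took Rps19bp1, which encodes a protein that binds a ribosomal protein and is not part of the ribosome, and Rpl6l, which RefSeq annotates as a pseudogene. Ribosomal protein genes under other symbols, such as Fau and Rack1 (listed under its older symbol Gnb2l1), were not taken by the rule.

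A ribosome is built from ribosomal RNA and, in general, a single copy of each ribosomal protein, so the mRNAs for these proteins are among the most abundant of a growing cell. Many of these mRNAs begin with a C followed by a run of pyrimidines, the 5′ terminal oligopyrimidine motif, through which growth signalling by mTOR and the RNA-binding protein Larp1 controls their translation. A few ribosomal proteins have paralogs that can take their place in the ribosome, such as Rpl22l1 for Rpl22, and their use differs between tissues.

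The study set brains bearing metastases against naive brains, with E0771 mouse mammary carcinoma cells as the source of the metastases. Female C57BL/6 mice, 2 to 3 months old, were taken about 2 weeks after the cells were given through a carotid artery, and naive mice served as the controls. Each of 4 brains was dissociated, enriched for mononuclear cells on a Percoll gradient, stained with 6 antibodies that carry sequence tags (CITE-seq), marked with its own hashtag antibody and pooled into 1 droplet run that reads the 3′ ends of transcripts. The sources used here do not say which hashtag marks a naive brain, so naive and metastatic brains were not compared, and the brains are named by their hashtags 1 to 4.

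The table holds 4668 cells, with 844, 410, 1385 and 2029 cells in the hashtag 1, 2, 3 and 4 brains. The median number of UMIs (unique transcript molecules) per cell was 4370.5, 5599.5, 12450 and 12806, and the median share of mitochondrial UMIs was 5.86%, 8.23%, 1.59% and 1.51%, in the same order. The hashtag 1 and 2 brains thus stood apart from the hashtag 3 and 4 brains in depth and in mitochondrial share. All cells came from 1 run and no cell barcode occurred more than once. The median share of a cell's hashtag counts that came from its own hashtag was 78.4%, 74.1%, 89.0% and 94.2% in the hashtag 1, 2, 3 and 4 brains, so the brain of a cell is less sure in the hashtag 1 and 2 brains. Levels below are UMIs per 10000 UMIs of a cell, averaged over the cells of a brain. They count transcript 3′ ends, with no division by gene length.

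Of the 87 genes, 84 were seen in at least 5% of cells and 80 in at least 90%. The 3 below that limit were Rpl39l with 29 UMIs over all cells, Rpl3l with 24 and Rpl10l with 2, paralogs known for testis (Rpl39l and Rpl10l) and for heart and skeletal muscle (Rpl3l). The 87 genes lie on 19 chromosomes, with 14 on chromosome 7 and 4 on the X chromosome (Rpl10, Rps4x, Rpl36a and Rpl39).

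The highest mean level over the 4 brains was that of Rpl13, at 88.5 UMIs per 10000, then Rpl41 at 79.1, Rps29 at 64.9, Rps18 at 61.2 and Rpl35 at 61.1. Rpl13 had 43.4, 33.4, 134 and 143 UMIs per 10000 in the hashtag 1, 2, 3 and 4 brains. The hashtag 3 and 4 brains were high and the hashtag 1 and 2 brains low. The lowest of the 84 were Rps27l at 6.57, Rps27rt at 2.61, Rpl6l at 1.63, Rps19bp1 at 1.15 and Rpl7l1 at 0.54. Rpl22l1 went the other way between brains, with 8.40, 7.20, 6.07 and 5.39 UMIs per 10000 in the hashtag 1, 2, 3 and 4 brains. Reads of near-identical copies can be split between symbols: 15 -ps symbols were in the table, the highest being Rpl23a-ps3 at 3.64 and Rps12-ps3 at 3.29 UMIs per 10000.

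Annotated transcript starts are shown because the start motif is what many of these mRNAs are known to share. In the RefSeq promoter windows (build GRCm38.p6) 66 of the 87 genes had an entry, and 14 of them (21.2%) had a C at the annotated start followed by at least 4 bases that are all C or T, read on the gene's own strand. The same letters were found in 813 of 27025 genes with a window (3.01%) and in 3.02% of those seen in at least 5% of cells. The count holds for the annotated base only and does not tell how many of these mRNAs carry the motif. The windows below hold 24 bases, with 12 before the annotated start. Capitals mark the C and the run of C or T that follows it. The first 4 have the run, and the last 3, which are genes that vary most between cells below, do not have it at the annotated start.
Rpl35 (chr2:39005120-39005143, minus strand): ccccgccctttcCTCTTTCTCTCg
Rps18 (chr17:33955654-33955677, minus strand): gtcacttccgctCTCTCTTCCaca
Rps27 (chr3:90213637-90213660, minus strand): tccgctttcgctCCTTTCCggcgg
Rps27rt (chr9:114982728-114982751, minus strand): acttatcccttgCTTTCCggcggt
Rpl22l1 (chr3:28805496-28805519, plus strand): cggcgcaagcccgttctcttccca
Rpl39 (chrX:37085211-37085234, minus strand): aagctccgcctctagcgacttctt
Rps27l (chr9:66946074-66946097, plus strand): ctcctccccgccgcctctatcccg

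The 11 deposited clusters carry numbers and no names. By the median over brains with at least 20 cells, the summed level of the 87 genes was highest in clusters 10, 0 and 7. It was lowest in clusters 1 and 5. Those medians rest on different brains, since clusters 7 and 10 had that many cells in the hashtag 3 and 4 brains only. In these brains cluster 2, with 3491 and 3465 UMIs per 10000, lay above cluster 7, with 3367 and 3319. In cluster 0 the sum was 2452, 3676 and 3598 UMIs per 10000 in the hashtag 1, 3 and 4 brains, and fewer than 20 cells carried hashtag 2. In cluster 1 the sum was 758, 690, 999 and 1162 in the hashtag 1, 2, 3 and 4 brains. The hashtag 3 and 4 brains were higher than the other brains given in both clusters. Cluster 3 was near level, with 1916, 1868, 2003 and 1803 UMIs per 10000. The clusters were made from the RNA of these cells, these genes included, so the differences between clusters are a description.

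**Figure D1:**
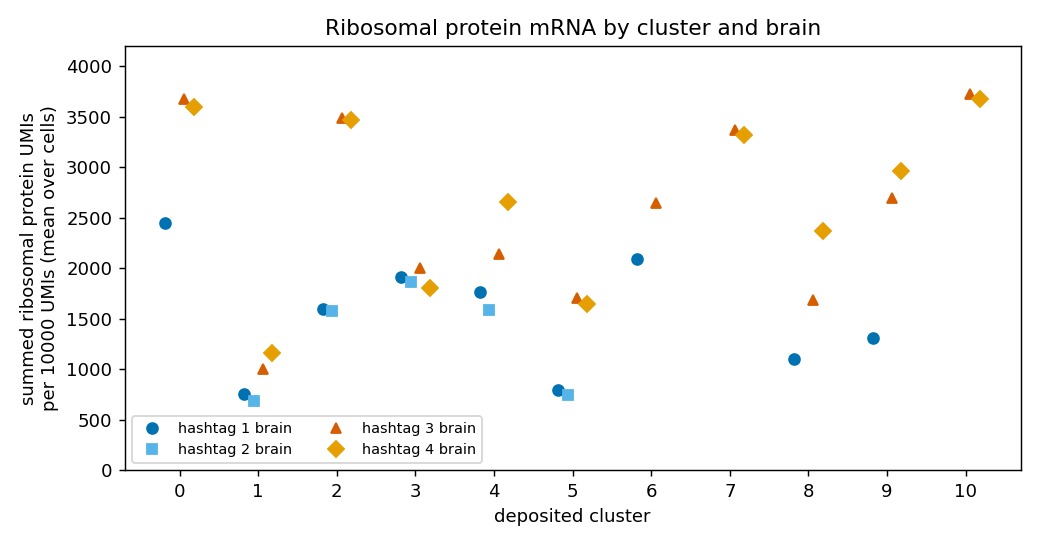
Summed ribosomal protein UMIs per 10000 UMIs (y axis, mean over cells) in each deposited cluster (x axis), with 1 point for each brain that had at least 20 cells. Cluster 0 reached 3676 in the hashtag 3 brain, cluster 1 stayed between 690 and 1162, and cluster 3 was near level across the brains, between 1803 and 2003.

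Within clusters 0 and 2 the hashtag 1 and 2 brains held cells at separate levels. Of their 123 cells in these clusters, 74 had under 1500 ribosomal protein UMIs per 10000, 49 had at least 2500 and 0 lay between. The 49 high cells had a median of 97.0 Ttr UMIs per 10000, 1.33% mitochondrial UMIs and 13356 UMIs, and 91.8% of them held a Rhox5 UMI. The 74 low cells had a median of 2632 Ttr UMIs per 10000, 13.1% mitochondrial UMIs and 4131 UMIs, and 16.2% of them held a Rhox5 UMI. Ttr encodes transthyretin, a secreted carrier of thyroid hormone made in the choroid plexus, and Rhox5 is an X-linked homeobox gene known from the reproductive tract and from mouse tumour lines.

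**Figure D2:**
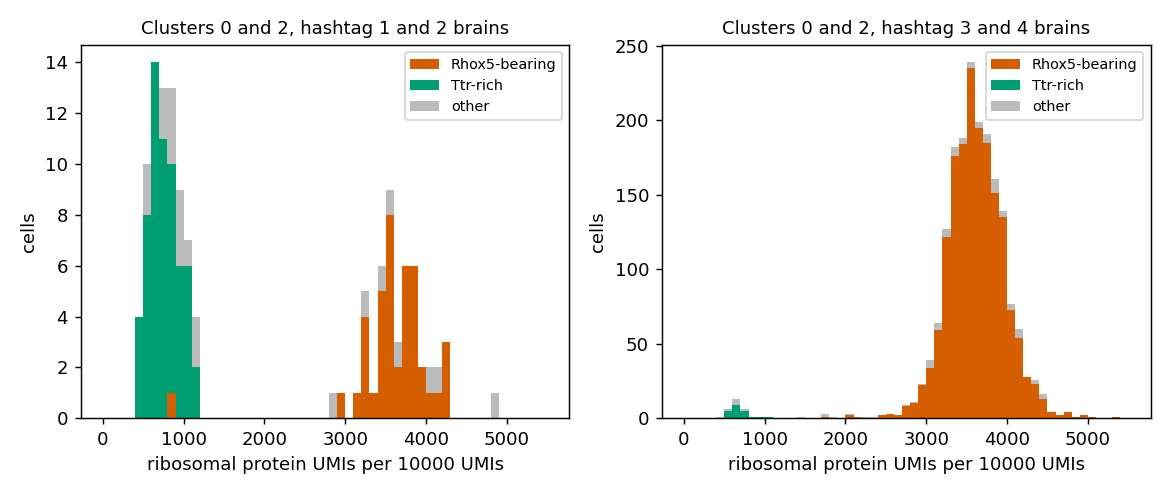
Number of cells (y axis) by ribosomal protein UMIs per 10000 UMIs (x axis, bins of 100) in deposited clusters 0 and 2, for the hashtag 1 and 2 brains (left) and the hashtag 3 and 4 brains (right), stacked by kind of cell. The hashtag 1 and 2 brains show 74 cells under 1500 and 49 at 2500 or more, and the Ttr-rich cells make up most of the low level.

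The own hashtag made up 80% or more of the hashtag counts in 12 of the 49 high cells and 22 of the 74 low cells.

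Cells were therefore parted by genes outside the set, by a rule chosen after the values had been seen. Rhox5-bearing cells had at least 2 Rhox5 UMIs and fewer than 1000 Ttr UMIs per 10000, outside clusters 3 and 6. CD45-tagged cells lay in clusters 3 and 6 with at least 300 counts of the CD45 tag. Cldn5-bearing cells of cluster 4 had at least 2 UMIs of Cldn5, a tight junction gene of endothelium, no Rhox5 UMI and fewer than 1000 Ttr UMIs per 10000. Ttr-rich cells had at least 1000 Ttr UMIs per 10000 and no Rhox5 UMI, outside clusters 3 and 6. The rule left 742 cells in no kind, and no cell was in more than 1.

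The rule used Ttr and Cldn5, so the kinds were looked at in markers that it did not use. The other 7 choroid plexus markers summed to 145 to 191 UMIs per 10000 over the brains in Ttr-rich cells, against 4.57 to 13.04 in the other kinds. Among them was Enpp2, a secreted enzyme gene of the choroid plexus, at 115 to 152 in Ttr-rich cells. The other 6 endothelial markers summed to 55.98 to 95.8 in Cldn5-bearing cells, against 1.38 to 5.19 in the other kinds. The 7 mammary carcinoma markers summed to 2.66 to 3.12 in Rhox5-bearing cells and 2.24 to 2.53 in Ttr-rich cells. Of these, Krt8 had 2.62 to 3.06 in Rhox5-bearing cells, against 0.69 to 0.77 in Ttr-rich, 0.37 to 0.48 in CD45-tagged and 0.19 to 0.64 in Cldn5-bearing cells. The rest of the list summed higher in Ttr-rich than in Rhox5-bearing cells. With members going opposite ways, the list as a whole gave the Rhox5-bearing cells no name of their own. Ttr averaged 111 to 256 UMIs per 10000 in the kinds other than Ttr-rich. A Rhox5 UMI was held by 22.6% of cells of clusters 3 and 6 at a median of 3753 UMIs, and by 30.0% of all cells outside them with at least 1000 Ttr UMIs per 10000, at a median of 6009 UMIs.

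Ribosomal protein mRNA was most abundant in Rhox5-bearing cells and least in Ttr-rich cells, in every brain. The summed level in Rhox5-bearing cells was 3537, 3371, 3621 and 3522 UMIs per 10000 in the hashtag 1, 2, 3 and 4 brains, from 57, 20, 826 and 1389 cells. In CD45-tagged cells it was 1976, 1880, 2092 and 1870, from 172, 43, 180 and 211 cells. In Cldn5-bearing cells it was 1673, 1389, 1853 and 2096, from 36, 29, 43 and 33 cells. In Ttr-rich cells it was 788, 705, 735 and 736, from 381, 208, 150 and 148 cells. The 4 brains of Rhox5-bearing cells lay above all brains of the other kinds and those of Ttr-rich cells below, while CD45-tagged and Cldn5-bearing cells overlapped. Within a kind the hashtag 1 and 2 brains were not set apart from the hashtag 3 and 4 brains, unlike in clusters 0 and 2, except in Cldn5-bearing cells. The Rhox5-bearing cells of the hashtag 1 and 2 brains are few and their hashtags uncertain: the own hashtag made up 80% or more of the hashtag counts in 9 of 57 and 3 of 20, against 640 of 826 and 1185 of 1389 in the hashtag 3 and 4 brains. In those 640 and 1185 cells the sum was 3620 and 3526, against 748 and 772 in Ttr-rich cells held to the same limit. Ttr-rich cells were uncertain in all 4 brains, with that limit met by 149 of 381, 67 of 208, 50 of 150 and 59 of 148. Each comparison below of Rhox5-bearing or Ttr-rich cells over 4 brains therefore rests in part on cells whose brain is uncertain.

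Counting error was small beside these differences: the widest exact binomial 95% interval of a brain's summed share of UMIs was 0.231 percentage points to either side.

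The sum was 4.49-fold to 4.93-fold higher in Rhox5-bearing than in Ttr-rich cells of the same brain. Ttr-rich cells also had 8.72% to 10.2% mitochondrial UMIs on average, against 1.51% to 2.02% in Rhox5-bearing cells, and both Ttr and mitochondrial UMIs enter the total. With mitochondrial genes and Ttr taken out of the total, the ratio was 2.74-fold to 2.89-fold. Rhox5-bearing cells stood 1.73-fold to 1.88-fold above CD45-tagged cells and 1.68-fold to 2.43-fold above Cldn5-bearing cells. Median UMIs per cell were 13752 to 15463.5 in Rhox5-bearing cells, 3258 to 3872 in CD45-tagged cells, 2832 to 3793 in Cldn5-bearing cells and 4477 to 7141.5 in Ttr-rich cells, and the part of depth and of mitochondrial share in the differences was not tested. Among Rhox5-bearing cells alone, clusters differed in depth and in the sum. The 47 cells of cluster 5 had a median of 4843 UMIs and a mean sum of 2030 per 10000, and the 77 of cluster 10 had 6686 UMIs and 3645. Mitochondrial share by cluster was taken over all cells of a cluster and not over its Rhox5-bearing cells alone. Of all cells of cluster 5, 20.8% were Rhox5-bearing and 43.4% Ttr-rich. Over all cells of cluster 5 the mean mitochondrial share was 12.1% and 12.4% in the hashtag 3 and 4 brains. It was 1.84% in both brains in cluster 10. The 34 cells of cluster 1 had 15523 UMIs and a mean sum of 3098, and the 183 of cluster 7 had 28243 UMIs and 3529. In the other clusters that held at least 10 such cells the mean sum lay between 3398 and 3656.

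Within a kind and a brain the summed level followed the mitochondrial share more than depth in Rhox5-bearing cells. There Pearson's r with the mitochondrial fraction was -0.59, -0.89, -0.52 and -0.58 and r with log10 UMIs was 0.22, 0.53, 0.23 and 0.27, over 57, 20, 826 and 1389 cells. In CD45-tagged cells r with log10 UMIs lay between -0.19 and 0.02. In Cldn5-bearing cells it was -0.04, -0.02, 0.61 and 0.75 in the hashtag 1, 2, 3 and 4 brains, and the sum of that kind was higher in the hashtag 3 and 4 brains. In Ttr-rich cells it lay between -0.50 and -0.29. These are descriptions over cells of 1 library, and the level, the mitochondrial fraction and depth share the UMI total.

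Gene by gene, 83 of the 84 genes were higher in all 4 brains of Rhox5-bearing cells than in any brain of Ttr-rich cells, and 1 was lower, where 38.5% of all 9355 genes seen in at least 5% of cells were higher and 18.8% lower. The median ratio of the 84 was 4.65-fold. These counts over kinds of cell are descriptions with no test, since the kinds were drawn from the RNA of the same cells. Without mitochondrial genes and Ttr in the total, 82 were higher and 1 was lower, against 20.4% and 35.4% of all genes. Against CD45-tagged cells 78 were higher and 1 was lower in Rhox5-bearing cells (23.9% and 14.3% of all genes), with a median of 1.84-fold. Against Cldn5-bearing cells 79 were higher and 1 was lower (15.6% and 15.8% of all genes), with a median of 2.04-fold. Between CD45-tagged and Ttr-rich cells 81 were higher and 0 lower (25.9% and 17.0% of all genes), and between Cldn5-bearing and Ttr-rich cells 78 were higher and 0 lower (23.6% and 9.94%). Between CD45-tagged and Cldn5-bearing cells only 11 were higher and 1 was lower (6.94% and 11.6% of all genes), and the other 72 overlapped.

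The gene that was lower in Rhox5-bearing cells in each of these comparisons was Rpl22l1, the paralog of Rpl22. Rpl22l1 had 5.49, 5.18, 4.33 and 4.53 UMIs per 10000 in Rhox5-bearing cells of the hashtag 1, 2, 3 and 4 brains. It had 11.3, 8.33, 8.83 and 7.95 in CD45-tagged cells, 5.79, 6.51, 7.20 and 8.37 in Cldn5-bearing cells and 7.68, 6.80, 9.27 and 7.01 in Ttr-rich cells. Every brain of Rhox5-bearing cells was below every brain of the other kinds, the closest values being 5.49 and 5.79. Its partner Rpl22 was instead highest in Rhox5-bearing cells, with 15.97, 15.2, 16.2 and 15.2 in Rhox5-bearing cells, 8.75, 7.95, 7.001 and 7.48 in CD45-tagged cells, 6.95, 4.98, 6.09 and 7.85 in Cldn5-bearing cells and 3.07, 2.76, 2.48 and 2.55 in Ttr-rich cells. The ratio of Rpl22l1 to Rpl22 UMIs was therefore 0.27 to 0.34 in Rhox5-bearing cells, 1.05 to 1.29 in CD45-tagged cells, 0.83 to 1.31 in Cldn5-bearing cells and 2.47 to 3.73 in Ttr-rich cells. Both are counts of 3′ ends, so the ratio serves to compare kinds and not the amounts of the proteins.

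The other paralog pairs differed less. Rps27l, a paralog of Rps27 that is known as a p53 target, had a ratio to Rps27 of 0.14 to 0.15 in Rhox5-bearing cells, 0.05 to 0.12 in CD45-tagged cells, 0.08 to 0.13 in Cldn5-bearing cells and 0.24 to 0.28 in Ttr-rich cells. Rpl36al, the autosomal paralog of the X-linked Rpl36a, had a ratio to it of 0.32 to 0.37, 0.46 to 0.60, 0.35 to 0.45 and 0.50 to 0.60 in the same order of kinds. Rps27rt had a ratio to Rps27 of 0.061 to 0.063, 0.063 to 0.068, 0.045 to 0.053 and 0.056 to 0.061. RefSeq gives Rps27 among the synonyms of Rps27rt, and reads of copies this alike cannot be told apart by 3′ counting with certainty. Rpl7l1, with a ratio to Rpl7 of 0.041 to 0.049 in Rhox5-bearing cells and 0.046 to 0.062 in Ttr-rich cells, kept close to its partner.

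Taken as a share of all ribosomal protein UMIs, which removes the differences in the sum, the make-up of the set also varied between kinds. On this scale 33 of the 84 genes were higher and 33 lower in Rhox5-bearing than in Ttr-rich cells without overlap of brains, and 27 were higher and 28 lower than in CD45-tagged cells. On the same scale 2.82% of all genes were higher and 73.3% lower against Ttr-rich cells, and 7.42% and 35.8% against CD45-tagged cells. For 72 of the 84 the SD of the log2 share between the 4 kinds was larger than the mean SD between brains of 1 kind. The median SD between kinds was 0.20 and the median SD between brains was 0.08. Rpl22l1 had the largest SD between kinds, 1.19, then Rps27l with 0.70 and Rpl39 with 0.54.

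**Figure D3:**
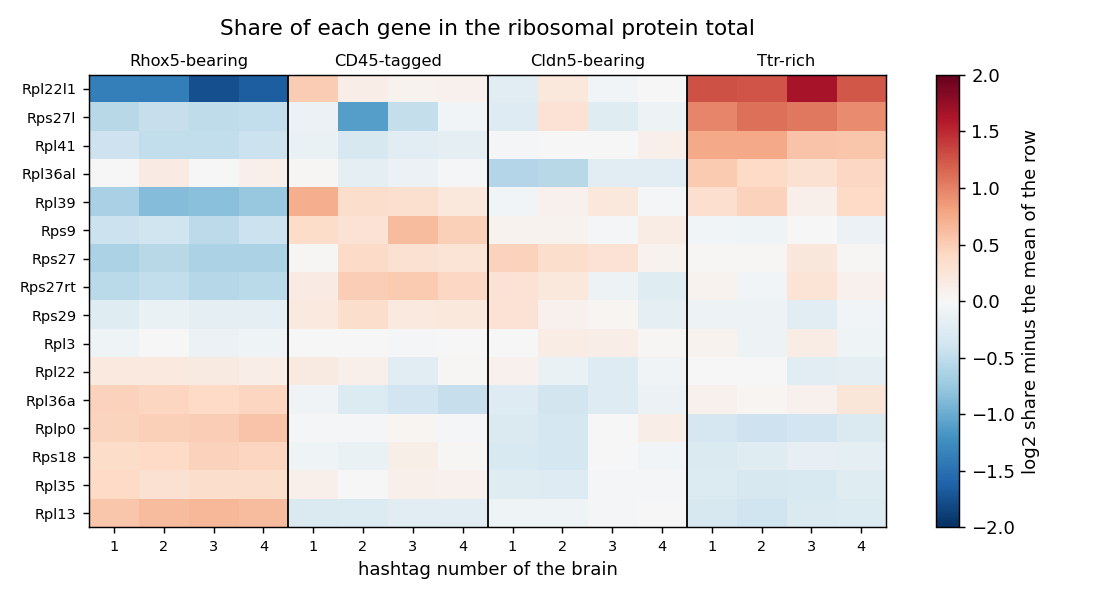
Share of 16 genes in the ribosomal protein total, as log2 share minus the mean of the row (colour), in each kind of cell and brain (x axis, hashtag number). Rpl22l1 runs from 0.12% to 0.16% in Rhox5-bearing cells up to 0.95% to 1.26% in Ttr-rich cells, and Rpl13 is highest in Rhox5-bearing cells in every brain.

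Rpl13 took 4.83%, 5.11%, 5.18% and 5.09% of the set in Rhox5-bearing cells of the hashtag 1, 2, 3 and 4 brains, against 2.62%, 2.498%, 2.68% and 2.72% in Ttr-rich cells and 2.70%, 2.73%, 2.82% and 2.82% in CD45-tagged cells. Rpl41, which encodes the smallest ribosomal protein, took 3.18%, 3.03%, 3.01% and 3.15% in Rhox5-bearing cells, against 7.17%, 7.20%, 6.33% and 6.26% in Ttr-rich cells. Rpl39, a small protein of the exit tunnel, took 0.57%, 0.49%, 0.50% and 0.53% in Rhox5-bearing cells, against 1.47%, 1.13%, 1.12% and 1.03% in CD45-tagged cells and 1.12%, 1.22%, 0.96% and 1.17% in Ttr-rich cells. The brains of Rhox5-bearing cells stood apart from those of these other kinds for each of the 3 genes. Per 10000 UMIs, Rpl39 was level or higher in CD45-tagged cells: 20.04, 16.4, 18.1 and 18.5 in Rhox5-bearing cells and 29.1, 21.3, 23.4 and 19.4 in CD45-tagged cells. The groups overlapped there.

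Of the small-subunit genes, Rps27 and Rps9 took a smaller share in Rhox5-bearing cells. Rps27 took 1.67%, 1.76%, 1.68% and 1.67% of the set in Rhox5-bearing cells, against 2.63%, 3.37%, 3.20% and 3.12% in CD45-tagged cells and 2.63%, 2.63%, 3.02% and 2.64% in Ttr-rich cells. Rps9, whose protein is known for its part in the accuracy of decoding, took 0.84%, 0.85%, 0.79% and 0.84% in Rhox5-bearing cells, against 1.45%, 1.39%, 1.75% and 1.58% in CD45-tagged cells. Per 10000 UMIs the brains of Rhox5-bearing and CD45-tagged cells overlapped for both genes. Rps27l took 0.23% to 0.25% in Rhox5-bearing cells, against 0.66% to 0.74% in Ttr-rich cells. Exact binomial 95% intervals were computed for the shares of Rpl22l1, Rpl39, Rps27l, Rpl13, Rps27, Rps27rt, Rps9 and Rpl41 only. The widest interval among these was 0.203 percentage points to either side, outside the smaller group of Cldn5-bearing cells. It is for counts summed over the cells of a brain, while the shares above come from means over cells.

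The P stalk, the arm of the large subunit that recruits elongation factors, is built from Rplp0, Rplp1 and Rplp2. Rplp0 took 1.78% to 1.94% of the set in Rhox5-bearing cells, against 1.28% to 1.35% in CD45-tagged cells and 0.99% to 1.07% in Ttr-rich cells. Rplp1 took 1.14% to 1.21%, against 1.05% to 1.15% and 1.12% to 1.21%. Rplp2 took 1.13% to 1.18%, against 1.13% to 1.25% and 0.99% to 1.07%. Rplp0 was thus separate between the kinds, and Rplp1 and Rplp2, the acidic proteins that it carries, overlapped in at least 1 of these pairs. Rpsa, also known as the laminin receptor, took 0.54% to 0.58%, against 0.62% to 0.67% and 0.42% to 0.54%.

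The large subunit outweighed the small one more in Rhox5-bearing and Ttr-rich cells than in CD45-tagged cells. The ratio of Rpl to Rps UMIs was 1.48 to 1.49 in Rhox5-bearing cells, 1.29 to 1.31 in CD45-tagged cells, 1.30 to 1.40 in Cldn5-bearing cells and 1.44 to 1.498 in Ttr-rich cells. The median log2 ratio of Rhox5-bearing over Ttr-rich cells was 2.12 for the 14 genes with the C and pyrimidine run at the annotated start. It was 2.20 for the 49 others with a window that were seen in at least 5% of cells. The split rests on the annotated base, and the starts used in these cells were not measured. It therefore cannot tell mRNAs with the motif from those without it.

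Most listed genes for translation factors and ribosome assembly were also higher in Rhox5-bearing than in Ttr-rich cells per 10000 UMIs, where 38.5% of all genes were higher and 18.8% lower. Of the ribosomal proteins under other symbols, Fau had 71.5, 69.8, 71.8 and 73.7 UMIs per 10000 in Rhox5-bearing cells, against 13.9, 12.04, 13.0 and 13.4 in Ttr-rich cells, without overlap. Of 51 ribosome biogenesis genes, which process and assemble the ribosomal RNA, 49 were higher and 0 lower. Of 31 initiation factors 25 were higher and 4 lower (Eif1b, Eif2s3x, Eif4a2 and Eif4g2), and of 6 elongation factors seen in at least 5% of cells 6 were higher. Of 77 genes for mitochondrial ribosomal proteins 60 were higher and 2 lower. The median log2 ratio was 1.99, 1.65, 1.64 and 0.96 for these 4 lists in turn, against 2.22 for the 84 genes of the set. Of 18 genes of growth signalling to ribosomes 8 were higher and 2 lower, a share of higher genes near that of all genes. Without mitochondrial genes and Ttr in the total, where 20.4% of all genes were higher and 35.4% lower, 39 of the 51 biogenesis genes were higher and 0 lower. On that scale 18 of 31 initiation factors were higher and 6 lower, and 5 of 6 elongation factors were higher and 0 lower. Of the 77 mitochondrial ribosomal protein genes 27 were higher and 10 lower there, and of the 18 growth signalling genes 2 were higher and 4 lower. The median log2 ratios there were 1.23, 0.90, 0.89, 0.21 and -0.10 for biogenesis, initiation, elongation, mitochondrial ribosomal proteins and growth signalling, against 1.47 for the 84 genes. Against CD45-tagged cells 40 of 51 ribosome biogenesis genes and 21 of 31 initiation factors were higher in Rhox5-bearing cells, with 0 and 2 lower (23.9% and 14.3% of all genes).

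Cells with at least 300 counts of the CD45 tag made up 99.8% of cluster 3 and 91.0% of cluster 6. In the other clusters their share was at most 23.1%, and those cells are not in the class levels given next. Within clusters 3 and 6 cells were classed by the marker list of which they held the most genes, with at least 4. Of 627 cells 148 got no class, ties included, and 153 held 3 or 4 markers of their best list, at the limit of the rule. The median level of the set was 3295 UMIs per 10000 in 30 granule progenitor-like cells, 2702 in 24 T cell-like cells, 1881 in 237 monocyte or macrophage-like cells, 1726 in 73 microglia-like cells and 1311 in 101 neutrophil-like cells. In 8 NK cell-like cells it was 2971 and in 6 B cell-like cells 3195, too few to set in the order. Neutrophil-like cells were low and granule progenitor-like cells, which express the granule protein genes Mpo, Elane, Prtn3 and Ctsg, were high, but 77 of the 101 and 27 of the 30 came from the hashtag 1 brain. In that brain alone the medians were 3312 for granule progenitor-like and 1193 for neutrophil-like cells, and in the hashtag 3 and 4 brains the neutrophil-like medians were 1690 and 1493, from 13 and 8 cells.

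**Figure D4:**
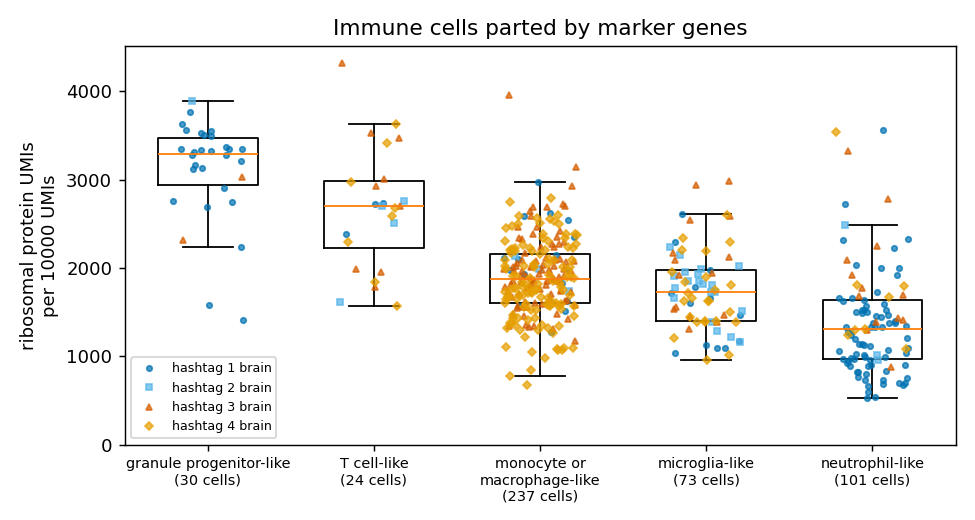
Ribosomal protein UMIs per 10000 UMIs (y axis) in single cells of clusters 3 and 6 by marker class (x axis), with the box from the lower to the upper quartile, the line at the median and whiskers to the last cell within 1.5 box lengths. The medians run from 3295 in granule progenitor-like cells to 1311 in neutrophil-like cells, and most cells of those 2 classes came from the hashtag 1 brain.

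Microglia-like and monocyte or macrophage-like cells were close. Their medians were 1601 against 2050 (hashtag 1), 1942 against 1913 (hashtag 3) and 1628 against 1769 (hashtag 4), from 13 and 16, 15 and 95, and 25 and 123 cells. The order turned in the hashtag 3 brain, so no order held over the brains. The share of Rps9 was 1.26% in T cell-like, 1.78% in monocyte or macrophage-like, 1.55% in microglia-like and 1.70% in neutrophil-like cells over all brains, and that of Rpl22l1 was 0.51%, 0.41%, 0.42% and 0.49%.

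To set the genes against a protein measured apart from RNA, cells with 300 or more counts of the CD45 tag were compared with the remaining cells of the same brain. CD45 is the common surface protein of blood cells. The summed level was 1902, 1944, 2259 and 2128 UMIs per 10000 in CD45-high cells of the hashtag 1, 2, 3 and 4 brains, against 1177, 890, 2961 and 3137 in CD45-low cells. CD45-high cells were higher in the hashtag 1 and 2 brains and lower in the hashtag 3 and 4 brains. Of the 84 genes, 74 followed this turn of direction, against 1252 of 9355 genes tested. In CD45-high cells of every brain 5 of the 84 (5.95%) were higher and 0 lower, against 17.4% and 19.5% of all genes tested. The median difference of the 84 genes was 0.68, 1.12, -0.41 and -0.56 (log2, high minus low) in the hashtag 1, 2, 3 and 4 brains.

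No gene of the set passed the test. In limma with the brain as a block, 0 of 84 were higher and 0 lower at an adjusted p of 0.05, where 7.6% of the 9355 genes tested were higher and 2.94% lower. At an unadjusted p under 0.05 there were 3 of 84, against 28.6% of all genes. On recovered counts edgeR and DESeq2 also called 0 and 0 of the 84, and 6.01% of 9355 and 9.23% of 8448 genes with an adjusted p in either direction. The largest differences were those of Rps27rt, 0.76 (SE 0.26, limma adjusted p = 0.097), Rps9, 0.74 (SE 0.30, limma adjusted p = 0.156), and Rpl39, 0.69 (SE 0.27, limma adjusted p = 0.146). The 5 that were higher in every brain, a smaller share than among all genes, were Rps27, Rps27rt, Rps9, Rpl39 and Rpl22l1, and none of them passed. Rps9 differed by 1.09, 1.33, 0.48 and 0.05 and Rpl22l1 by 0.46, 0.17, 0.58 and 0.53 in the hashtag 1, 2, 3 and 4 brains. Without the hashtag 4 brain Rps27rt passed, at 0.98 (limma adjusted p = 0.037).

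Both arms were mixed, and their make-up differed between the brains. Ttr-rich cells were 59.1%, 59.4%, 12.6% and 7.93% of CD45-low cells in the hashtag 1, 2, 3 and 4 brains, and Rhox5-bearing cells were 7.33%, 3.88%, 70.3% and 78.5%. Of CD45-high cells 74.8%, 57.3%, 70.6% and 60.1% lay in clusters 3 and 6, in the same order of brains. Rhox5-bearing cells were 5.22%, 9.33%, 12.5% and 20.2% of CD45-high cells, and Ttr-rich cells at least 3.14% in each brain. The level of CD45-tagged cells in clusters 3 and 6, a part of the CD45-high arm, lay between those of the Ttr-rich and the Rhox5-bearing cells. This held in each of the 4 brains. Because these are averages over cells of several kinds, more cells of a kind and more RNA per cell cannot be told apart in this comparison.

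Of the lists around the ribosome, 1 gene passed in the CD45 comparison. It was 1 of 18 growth signalling genes tested, where 7.6% of all genes tested were higher. Rps6ka1, which encodes a ribosomal S6 kinase of the RSK family, was higher by 1.62, 1.77, 1.54 and 1.29 in CD45-high cells of the 4 brains, with a mean of 1.55 (SE 0.17, limma adjusted p = 9.8e-04). Of 51 ribosome biogenesis genes, 31 initiation factors, 6 elongation factors and 77 mitochondrial ribosomal protein genes tested, 0 passed in either direction. Of all genes 10.5% passed. At an unadjusted limma p under 0.05 these lists had 5, 2, 0 and 7, against 28.6% of all genes. The median differences of these lists were -0.13, -0.04, -0.01 and -0.12, against 0.19 for the ribosomal protein genes and -0.06 for all genes.

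**Figure D5:**
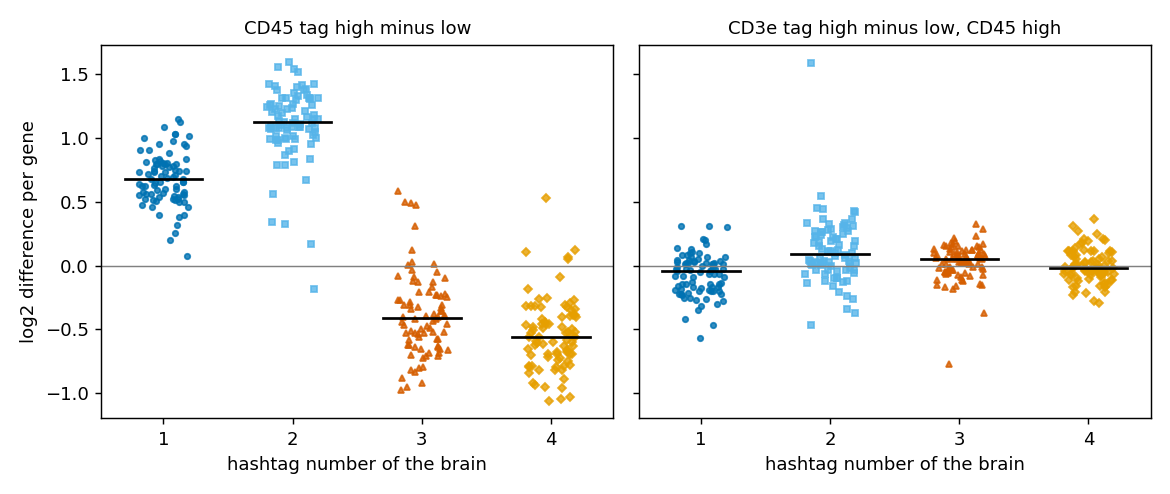
Log2 difference (y axis) of each of 84 ribosomal protein genes in each brain (x axis) for CD45-high minus CD45-low cells (left) and, among CD45-high cells, CD3e-high minus other cells (right), with a black line at the median. On the left the medians are 0.68 and 1.12 in the hashtag 1 and 2 brains and -0.41 and -0.56 in the hashtag 3 and 4 brains, and on the right they lie between -0.04 and 0.09.

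Among CD45-high cells, those with a CD3e tag count of at least 20 were compared with the others. CD3e is part of the T cell receptor complex. Of 212 CD3e-high cells 77.8% held at least 1 UMI of Cd3e, Cd3d, Cd3g, Trac or Trbc2, against 15.5% of the 699 other cells, at median depths of 4168 and 4123 UMIs. The share was 8.997% in CD45-low cells at a median of 11642 UMIs. By the rule of 4 markers 18 of the 212 and 8 of the 699 were T cell-like. The summed level was 1842, 2058, 2316 and 2131 UMIs per 10000 in CD3e-high cells of the hashtag 1, 2, 3 and 4 brains, against 1911, 1906, 2235 and 2127 in the other CD45-high cells. The arms were level in the hashtag 4 brain and differed in both directions elsewhere.

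In this comparison limma called 0 of 84 genes higher and 0 lower, where 0.107% of all 9355 genes tested were higher and 0.0641% lower. At an unadjusted p under 0.05 there were 7 of 84, against 8.17% of all genes. DESeq2 on recovered counts gave an adjusted p to 82 of the 84 and called 0, with 4.93% of the 831 genes that got one called in either direction. edgeR called 0 higher and 6 lower, with 1.19% and 0.545% of all genes, among them Rpl36a at -0.40 and Rpl13 at -0.30 (edgeR adjusted p = 0.0075 and 0.016), which limma gave as -0.15 and -0.11. Rps27 was higher in CD3e-high cells of every brain, by 0.31, 0.37, 0.29 and 0.37, and narrowly missed the threshold (mean 0.33, limma adjusted p = 0.064). It passed with a pseudocount of 1, without the hashtag 2 brain and with a CD3e tag count of at least 10, at limma adjusted p of 0.023, 0.021 and 0.011. Rps27l was lower in every brain, by values of -0.26, -0.37, -0.37 and -0.17, and did not pass (mean -0.29, limma adjusted p = 0.53). Among the immune marker lists, 2 of 2 tested granule progenitor markers and 2 of 5 neutrophil markers passed as lower in CD3e-high cells. The 5 neutrophil markers ran from -1.44 to 0.33. As higher, 1 of 1 T cell marker and 1 of 2 NK cell markers passed. The 5 microglia markers were higher by 0.30 to 0.66 and the 7 monocyte or macrophage markers had a median of 0.07, with 0 past the test in both lists. Rhox5-bearing cells were 3.23%, 5.26%, 6.49% and 9.41% of CD3e-high cells in the hashtag 1, 2, 3 and 4 brains. They were 5.53%, 10.7%, 15.2% and 23.7% of the other CD45-high cells. Ttr-rich cells were 9.68%, 5.26%, 2.60% and 4.71% of CD3e-high cells, against 7.54%, 14.3%, 3.37% and 4.14%. The arms thus differ in more than T cells, and the part of any of these cells in the differences of the ribosomal protein genes was not tested.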

How the data were processed

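Expression values were deposited by the authors as the natural log of 1 plus UMIs per 10000 UMIs of a cell, per the values and the file headers. The cell table deposited by the authors gives the UMI count, hashtag and antibody tag counts, the mitochondrial fraction, a hashtag class and a cluster number for each cell. The tags were counted with CITE-seq-Count, per the labels' design text. The submitters' processing notes name Cell Ranger 2.1, Seurat 2.3.4 and mm10, with no role for each. Which filters were applied to cells is not given in the sources used here. No cell was removed here and no doublet caller was run.

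Values were unlogged and multiplied by each cell's UMI total. This gave whole numbers, within 0.01, for 99.8% of nonzero values, and the recovered counts served for edgeR, DESeq2 and intervals. UMIs per cell ran from 2495 to 43038 with a median of 9472. Intervals are exact binomial at 95%, are for counts summed over the cells of a brain and cover counting error only.

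For the tag comparisons, each brain's level in an arm was the mean over its cells there, with at least 20 cells an arm for CD45 and 5 for CD3e. Genes seen in at least 5% of cells were tested on log2(level + 0.1) with limma 3.58.1 in R 4.3.3, with the brain as a block and Benjamini-Hochberg adjustment over all 9355 genes, two-sided. Differences on that scale understate the change of low genes. The arms are paired because both hold cells of the same 4 animals, and p-values measure the spread between those animals. edgeR 4.0.16 (quasi-likelihood) and DESeq2 1.42.0 on summed counts, other pseudocounts, filters, scalings, tag limits and the leaving out of each brain were alternatives. The limma test was tried on simulated counts in which a change was the same in every brain. That does not check the other steps. Clusters and kinds of cell come from RNA and were given no test.

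The members and lists were chosen with earlier results of these data known. Named with values were the paralogs and their partners, the 5 highest and 5 lowest members, the 6 with the largest SD of share between clusters, the P stalk genes and Rpsa, and pathway genes past a test. Tools were Python 3.11.15, numpy 2.4.6, pandas 2.3.3 and scipy 1.17.1, with figures by matplotlib 3.10.9. The brains could not be assigned to the naive or the metastatic condition, and that comparison was not made here. The list of ribosomal protein genes under other symbols is not reported here in full.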

Additional observations from a re-analysis of the deposited data

Results flagged for a closer look

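Of 169 sets of 4 brain values examined, 12 held a brain whose gap to the nearest other brain exceeded Dixon's 95% critical value as a share of the range, and chance gives this in about 1 in 20 sets. In the CD3e comparison Rpl22l1 differed by -0.46 (log2) in the hashtag 1 brain, against 0.13, 0.08 and 0.12 in the other brains. Rps27rt differed by 0.45 in the hashtag 2 brain, against 0.31, 0.32 and 0.31, and Rplp0 by 0.24 in the hashtag 2 brain, against -0.14, -0.08 and -0.13.

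Among shares of the ribosomal protein total, Rpl22l1 stood out in 2 kinds of cell. It took 0.573% in CD45-tagged cells of the hashtag 1 brain, against 0.443%, 0.422% and 0.425% in the others. In those cells of the hashtag 1 brain neutrophil markers summed to 1153 UMIs per 10000, against 170, 102 and 92.8 in the others, and granule progenitor markers to 29.97, against 3.14, 5.88 and 2.43. Their part in the share of Rpl22l1 was not tested. It took 1.26% in Ttr-rich cells of the hashtag 3 brain, against 0.975%, 0.965% and 0.952%. Rps27 took 1.76% in Rhox5-bearing cells of the hashtag 2 brain, which are 20 cells, against 1.67%, 1.68% and 1.67%. It took 3.02% in Ttr-rich cells of the hashtag 3 brain, against 2.63%, 2.63% and 2.64%.

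In Rhox5-bearing cells Rplp1 took 1.21% in the hashtag 4 brain, against 1.14% in each of the others, and Rpl7l1 took 0.020% in the hashtag 1 brain, against 0.024% in each of the others. In CD45-tagged cells of the hashtag 2 brain, which are 43 cells, Rps29 took 4.27%, against 3.81%, 3.83% and 3.85%, and Rps19bp1 took 0.017%, against 0.041%, 0.039% and 0.043%. Rpl10 took 1.14% in Ttr-rich cells of the hashtag 1 brain, against 1.05%, 1.03% and 1.04%.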

How the results depend on the processing

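In the CD45 comparison 986 genes passed, and 236 passed when scaled to the sum of the ribosomal protein genes, 1550 without mitochondrial genes and Ttr in the total, 562 by edgeR, 507 in cells with at least 80% of hashtag counts from their own hashtag, 1794 with clusters 3 and 6 set against the others, 852 without the replicate block and, chosen after seeing the data, 1751 with tag and cluster together. Leaving out a brain gave 542 to 1225 genes, 0 to 1 of the set higher, and a median difference of the set of -0.12 to 0.46, against 0.19. In the CD3e comparison 16 genes passed, and 7 passed with a pseudocount of 0.01, 6 with genes seen in at least 1 cell, 162 by edgeR, 41 by DESeq2, 2 without the replicate block, 6 at 80% own hashtag, 77 with a CD3e tag of at least 40, and, chosen after seeing the data, 5 within clusters 3 and 6 and 0 within cluster 3. Of the set, 1 gene was higher with a pseudocount of 1, with a CD3e tag of at least 10 and with at least 20 cells an arm, and 6 were lower by edgeR. The median of the set was 0.02, against -0.15 by edgeR, -0.12 by DESeq2, 0.13 within clusters 3 and 6 and 0.27 within cluster 3. Leaving out a brain gave 10 to 20 genes and 0 to 1 of the set higher.

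The median summed level over brains of cluster 1 was 1409.9 without mitochondrial genes and Ttr, against 878.9, that of cluster 4 was 2444.4 with summed counts, against 1950.2, and that of cluster 5 was 1771.4 at 80% own hashtag, against 1220.5. Cluster 7 gave 3432.3, 3529.6 and 3416 under these settings in turn, against 3343, and cluster 10 gave 3815.3 and 3663.1 without those genes and at 80% own hashtag, against 3702.8. The Ttr-rich median was 1297.1 without mitochondrial genes and Ttr and 688.2 with at least 2000 Ttr UMIs per 10000, against 735.4, both chosen after seeing the data. The causes were not tested. Of the other summary values 173 stayed within a limit of size, the SD between brains for most levels and medians and a set fold for counts. The sign was not part of that limit. With a brain left out, the median CD45 difference of the set fell to -0.12, against 0.19, and still counted as kept. Of the values of single named genes, 1 for each gene and alternative, 955 kept their side of the threshold. Another 7 passed it under an alternative (4 of Rps27 and 1 each of Rps27rt, Rpl13 and Rpl36a). For Rps27 the limit of at least 20 cells an arm leaves out the hashtag 2 brain only. It is thus the same analysis as leaving that brain out, counted again. A reversal was scored only where a value was past the threshold, and 0 were scored. The smallest difference that 4 brains could show at this depth was not computed.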
